A study of Mus musculus with 17 samples.

Results

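Mouse genes whose symbol is Gm followed by digits are predicted genes, placed in the genome by automated or manual annotation and not yet given a descriptive name. They were taken from a table of Pol II ChIP-seq signal at promoters and over gene bodies by a match of the gene name to that pattern. After exact repeated rows were dropped, 10634 of the 36172 genes in the table were predicted genes (29.4%). A promoter signal above 2000 in any of the 4 libraries was listed for 35 of them, called high-signal members here. The other 10599 are called ordinary members.

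The 4 libraries come from primary C57Bl/6 mouse embryonic fibroblasts, with 3 lines pooled. Cells infected with a lentiviral hairpin against Rpap1 (shRPAP1 #5) were compared with cells infected with a non-targeting hairpin (SCR). Both were kept in puromycin and harvested at day 3, and neither group was uninfected. RPAP1 binds RNA polymerase II (Pol II), hence its name. Chromatin was precipitated with an antibody to total Pol II (RPB1, N-20) or to its form phosphorylated on serine 5 in the C-terminal domain (Ser5P), with 1 library for each antibody and hairpin. In the labels of both shRPAP1 ChIP samples the free description says SCR, against their title, treatment and hairpin, which were followed here. Without replicates no test between conditions was possible: higher and lower describe single libraries, and all intervals cover counting error only.

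Predicted genes are a mixed class. Processed pseudogenes are copies of messenger RNA inserted back into the genome, and they usually lack the promoter of their parent. Unprocessed pseudogenes arise by duplication of a gene or, in the nucleus, of mitochondrial DNA. Long noncoding RNAs often start beside the promoter of a coding gene, on the opposite strand, because many mammalian promoters initiate in both directions. A few predicted genes lie in arrays of major satellite, the tandem repeat of mouse pericentromeric heterochromatin. Pol II is loaded at promoters and phosphorylated at serine 5 early in transcription, so Ser5P signal is usually highest near the start of an active gene. In a single GENCODE M21 entry, 10025 predicted genes had a position on GRCm38. Processed pseudogenes made up 3744 of them, lincRNAs 1749, antisense transcripts 1274, unprocessed pseudogenes 1225 and coding genes 1213. The other 609 had no single entry and were used without a position.

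The promoter sequences of 5 members on which the results turn are printed from RefSeq (build GRCm38.p6), 5′ to 3′ on the strand of the gene, from 250 bases before the RefSeq start to 50 after it. The promoter table held 1752 of the members, 5 of them high-signal. Gm6634 (chr3:70807242-70807541, minus strand) is a lincRNA with the highest mean promoter signal among ordinary members that start over 10000 bases from any named start, lie outside any named gene and have a fully unique window. Gm26787 (chr9:36767637-36767936, plus strand) and Gm12694 (chr4:94978871-94979170, plus strand) start beside a coding gene on the opposite strand. In these sequences capitals mark the CCAAT box (CCAAT, or ATTGG on the other strand) and the GC box (GGGCGG or CCGCCC). Gm13288 (chr4:88805281-88805580, plus strand) and Gm13276 (chr4:88784804-88785103, plus strand) are limitin-like interferon genes, and the capital marks the 1 base at which the windows differ.
Gm6634: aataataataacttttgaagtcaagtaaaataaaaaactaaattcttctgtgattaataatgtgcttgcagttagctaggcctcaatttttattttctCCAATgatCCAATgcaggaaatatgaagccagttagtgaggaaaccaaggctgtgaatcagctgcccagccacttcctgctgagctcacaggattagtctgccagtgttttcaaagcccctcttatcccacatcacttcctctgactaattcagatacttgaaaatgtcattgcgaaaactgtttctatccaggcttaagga
Gm26787: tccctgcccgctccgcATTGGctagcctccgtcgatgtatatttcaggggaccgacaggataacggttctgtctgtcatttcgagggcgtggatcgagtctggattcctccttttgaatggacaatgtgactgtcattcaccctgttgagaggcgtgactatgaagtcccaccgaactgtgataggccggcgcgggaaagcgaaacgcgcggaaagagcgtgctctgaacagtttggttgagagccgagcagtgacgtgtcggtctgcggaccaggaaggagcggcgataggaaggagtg
Gm12694: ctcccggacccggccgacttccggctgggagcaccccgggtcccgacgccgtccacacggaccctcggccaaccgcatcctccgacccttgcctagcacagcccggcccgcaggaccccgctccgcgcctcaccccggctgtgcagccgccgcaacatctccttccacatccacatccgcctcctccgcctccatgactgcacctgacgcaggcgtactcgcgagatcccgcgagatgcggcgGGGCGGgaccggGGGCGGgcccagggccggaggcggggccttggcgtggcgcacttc
Gm13288: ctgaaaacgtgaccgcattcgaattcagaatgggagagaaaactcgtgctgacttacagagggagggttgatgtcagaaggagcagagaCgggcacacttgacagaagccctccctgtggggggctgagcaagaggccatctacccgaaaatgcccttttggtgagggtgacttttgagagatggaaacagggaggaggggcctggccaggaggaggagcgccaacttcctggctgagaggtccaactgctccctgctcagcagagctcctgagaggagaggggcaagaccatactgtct
Gm13276: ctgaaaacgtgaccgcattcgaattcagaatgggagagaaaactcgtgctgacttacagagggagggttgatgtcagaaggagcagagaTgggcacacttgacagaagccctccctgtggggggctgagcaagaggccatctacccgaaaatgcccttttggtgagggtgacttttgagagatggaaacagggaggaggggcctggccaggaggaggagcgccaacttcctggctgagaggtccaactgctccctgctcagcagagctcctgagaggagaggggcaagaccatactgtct

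The promoter of Gm6634 held 2 CCAAT boxes and that of Gm26787 held 1, while Gm12694 held 2 GC boxes. Matches were searched on both strands and are descriptions, not binding sites. A GC box was present in 56.2% of the 176 promoters of ordinary members with a mean of 5 reads or more, in 14.4% of the 1571 promoters of ordinary members below that, and in 35.7% of all 32851 promoters of this length. For the CCAAT box the shares were 42.6%, 35.3% and 37.4%. A TATA box (TATAAA or TTTATA) was found in 9.09%, 14.5% and 13.6%.

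The signal is in the authors' own units, in which a first read of 40 bases over a promoter is worth 29.57 and each further read 28.85, while 0.72 stands for no coverage. Promoter signal over all genes was worth about 71277 reads in total Pol II shRPAP1, 129638 in total Pol II SCR, 156207 in Ser5P shRPAP1 and 290756 in Ser5P SCR. Of these, predicted genes held 12117, 16449, 19684 and 24541 reads. Mean signal over 1573 olfactory and vomeronasal receptor genes, which are silent in fibroblasts, was higher in shRPAP1 than in SCR by 0.77 (log2) at promoters and 0.85 over gene bodies with total Pol II, and by 0.58 and 0.82 with Ser5P. All 9 fibroblast markers exceeded the receptor threshold over their gene bodies in at least 1 library. Of the others, 0 of 4 epithelial, 0 of 2 endothelial, 0 of 3 embryonic stem cell and 1 of 2 blood markers did. Pdgfra was the lowest of the 9, at 27.1 in shRPAP1 and 24.4 in SCR for total Pol II. With Ser5P it held 35.3 in shRPAP1 and 35.9 in SCR. Rpap1 itself had a promoter signal of 325 in shRPAP1 and 211 in SCR for total Pol II, and of 541 in shRPAP1 and 886 in SCR for Ser5P. Its log2 ratios were 0.62 (95% interval -0.85 to 2.26) and -0.71 (-1.61 to 0.16). A hairpin acts on the RNA, so these values do not check the labels.

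Predicted genes were more often without promoter coverage than the other 25538 genes in the table. With total Pol II, 59.9% of predicted genes in shRPAP1 and 63.6% in SCR were at the floor, against 39.5% and 39.7% of the other genes. With Ser5P the shares were 57.1% in shRPAP1 and 60.1% in SCR for predicted genes, against 36.2% and 37.1% for the others. No coverage in any of the 4 libraries was listed for 29.1% of predicted and 16.1% of other genes. A mean of 5 reads or more per library was reached by 580 predicted genes (5.45%) and by 34.4% of the others.

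The 35 high-signal members fell into 3 kinds by sequence and position, and these kinds were drawn up after their values had been seen. A first kind of 13 are called satellite members: 10 on chr9:3000282-3038316, Gm10800 and Gm10801 on chromosome 2, and Gm21738 on chromosome 14. They were defined by a 40-base word of the promoter window found in at least 40 places in the genome, and none in the mitochondrial genome. In Gm10801 and Gm21738 most words were unique (56.4% and 69.1%). In 11 of the 13 the whole gene span matched itself best at an offset of 234 bases. The best offset was 351 bases in Gm21738, at 60.3% identity, and 58 bases in Gm10801, at only 37.3% identity. Gm10925, of the next kind, also reached 37.3%, so Gm10801 is called satellite by its repeated words only. The next 8 are unprocessed pseudogenes copied from mitochondrial DNA. Of the remaining 14, most lie beside or inside a named gene, and Gm20417 had no single position. Just above the value of 2000 lay Gm3448 at 2005, Gm13341 at 2133 and Gm13340 at 2142, and just below it Gm12694 at 1929, Gm10116 at 1904 and Gm21769 at 1875, as the highest value in any library. All 13 satellite members exceeded 2000 in all 4 libraries. Of the mitochondrial copies 4 exceeded it only in shRPAP1, and 12 of the remaining 14 exceeded it only in SCR. The direction of those members is in part set by the choice, and supports nothing by itself.

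**Figure D1:**
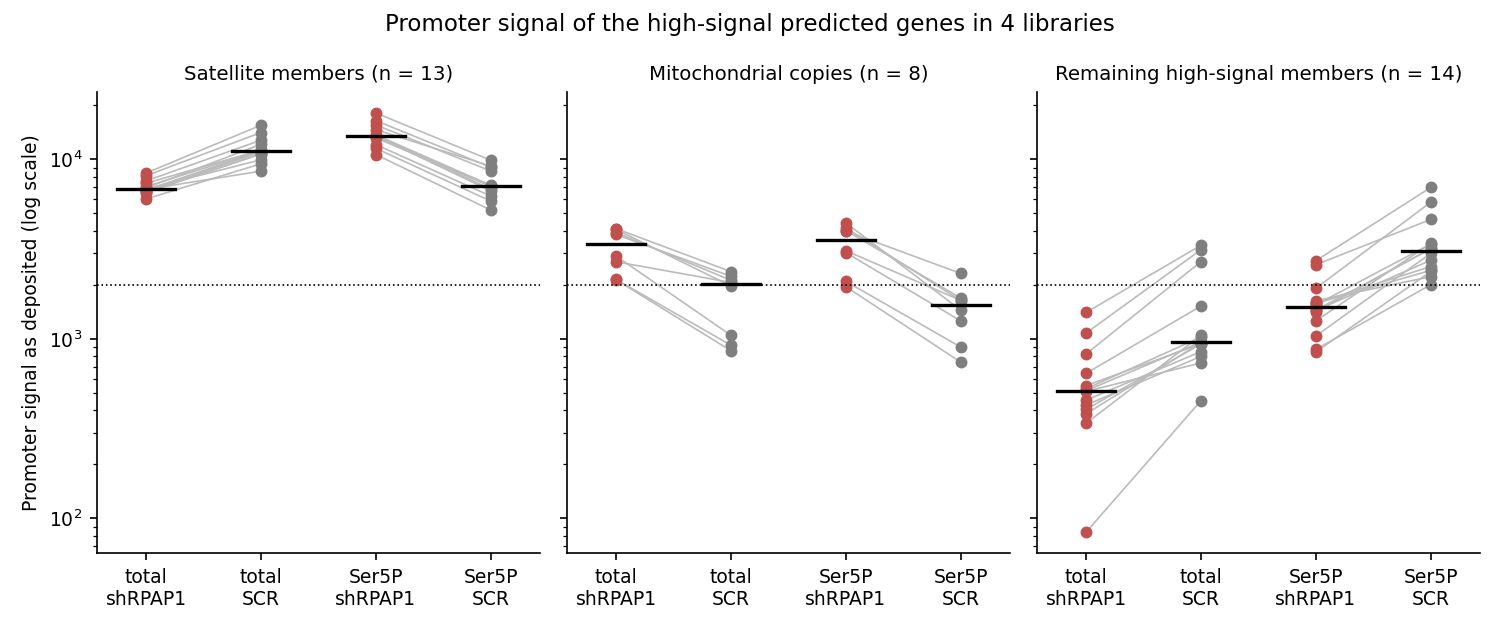
Promoter signal as deposited (log axis) of the 35 high-signal predicted genes in the total Pol II and Ser5P libraries, by kind. Each point is a gene, lines join the same gene in shRPAP1 (red) and SCR (grey), black bars are medians, and the dotted line is 2000. Satellite members lie lower in shRPAP1 with total Pol II (median 6843 against 11150) and higher with Ser5P (13487 against 7091).

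Satellite members had the highest mean promoter signal over the 4 libraries of all predicted genes, at 7815 to 12977, against at most 3608 in any other. Only in Ser5P SCR did other members exceed any of them: Gm15270, at 6981, exceeded 5 of the 13, and Gm29233, at 5783, exceeded Gm10719, at 5215. With total Pol II their promoters held 6014 to 8382 (median 6843) in shRPAP1 and 8597 to 15506 (median 11150) in SCR. The order was the opposite with Ser5P, at 10640 to 18138 (median 13487) in shRPAP1 and 5215 to 9882 (median 7091) in SCR. The ranges of the 2 conditions did not overlap with either antibody. Gm11168, an annotated coding gene at chr9:3003346-3006948, was the highest of them, with 8382 in shRPAP1 and 15506 in SCR for total Pol II, and 18138 in shRPAP1 and 9882 in SCR for Ser5P. Its log2 ratios of shRPAP1 over SCR were -0.89 (95% interval -1.09 to -0.68) and 0.88 (0.68 to 1.07). Over the 13 members the promoter log2 ratio had a median of -0.72 (range -0.89 to -0.34) with total Pol II and of 0.93 (0.67 to 1.03) with Ser5P. These genes share sequence and their reads may be shared too, so the 13 are not independent.

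In total Pol II, 11 of the 13 satellite promoters were at least 1.5-fold lower in shRPAP1, where 64.7% of all 14261 genes past the filter on promoter signal were. In Ser5P, 13 of 13 were at least 1.5-fold higher, where 5.84% of all genes past the filter were. Over gene bodies 13 of 13 were lower with total Pol II (45.7% of all 13114 genes past the gene body filter) and 13 of 13 were higher with Ser5P (6.92% of all genes). The median of all genes past the filter was -0.98 at promoters with both antibodies, and -0.53 with total Pol II and -0.76 with Ser5P over gene bodies. With the medians of all genes set to 1, the satellite median was 0.27 for total Pol II promoters, above 0 in 13 of 13 genes, so that direction depends on the scaling. It was then -0.09 over gene bodies, and with Ser5P 1.91 at promoters and 1.68 over gene bodies. With the receptor genes set equal it was -1.49 and -1.48 for total Pol II, and 0.35 and 0.09 for Ser5P.

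The ratio of Ser5P to total Pol II signal at satellite promoters therefore differed between the conditions, at a median of 2.02 (1.56 to 2.16) in shRPAP1 and 0.635 (0.607 to 0.756) in SCR. On the log2 scale these medians were 1.01 in shRPAP1 and -0.66 in SCR. The median over all genes past the filter was 1.25 on that scale in both conditions, above the satellite median in each. The libraries differ in depth, so a ratio of 1 has no special meaning here. The promoters of most satellite members held about as much signal as the gene bodies: the median ratio of promoter to gene body signal was 0.97 in shRPAP1 and 0.979 in SCR for total Pol II, and 0.971 in shRPAP1 and 0.995 in SCR for Ser5P. The exception was Gm10801, the 1 member of the 13 whose ratio exceeded 1.5, at 1.82 in shRPAP1 and 1.93 in SCR for total Pol II, and 1.89 in shRPAP1 and 2.28 in SCR for Ser5P. Together the 13 genes held 4.40% of all promoter signal in shRPAP1 and 3.95% in SCR with total Pol II. With Ser5P they held 3.96% in shRPAP1 and 1.14% in SCR. Input chromatin was not analysed here, so the part of fragments precipitated without the antibody in this signal was not tested.

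**Figure D2:**
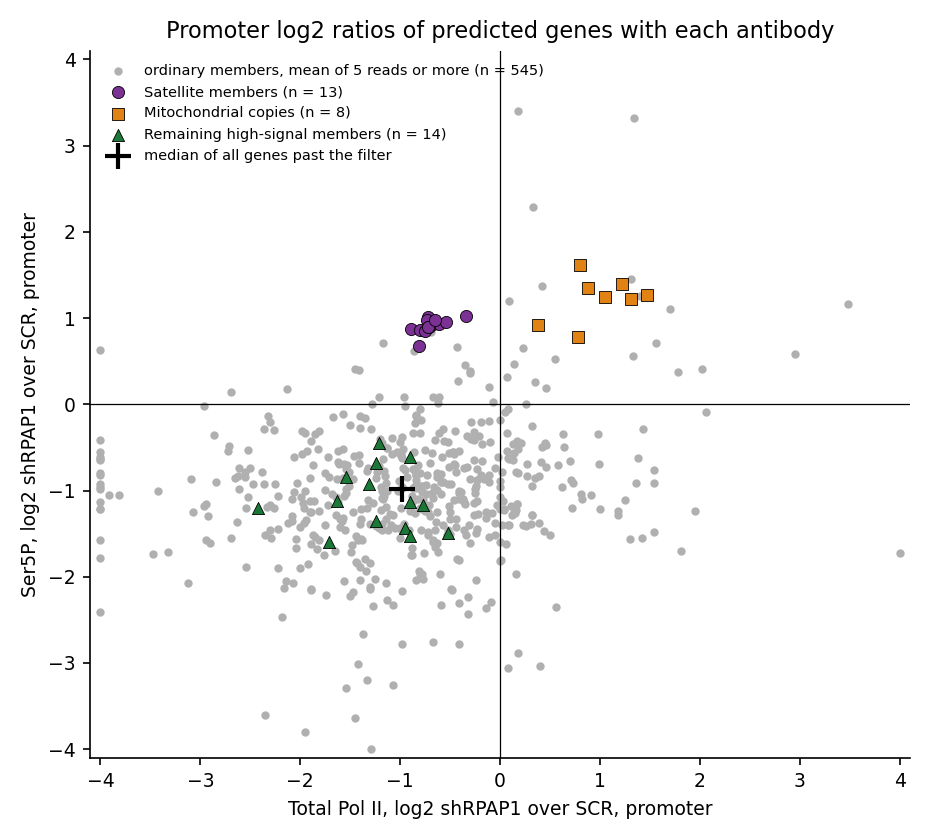
Log2 ratio of shRPAP1 over SCR at promoters with total Pol II (x axis) and Ser5P (y axis). Grey points are the 545 ordinary members with a mean of 5 reads or more, drawn at 4 where the ratio is beyond 4 in size (19 members), and coloured points are the high-signal members. The satellite members (medians -0.72 and 0.93) and the mitochondrial copies (0.97 and 1.26) lie above 0 with Ser5P, while the cross marks the median of all genes past the filter (-0.98 with each).

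Mitochondrial copies were higher in shRPAP1 with both antibodies at the promoter. They comprise Gm28437, Gm28438, Gm28439, Gm28661, Gm10925 and Gm29216 in a block at chr1:24611535-24616197, and Gm13340 and Gm13341 at chr2:22587291-22589647 inside Myo3a, an unconventional myosin gene. Between 47.4% and 100% of the 40-base words in their promoter windows were also found in the mitochondrial genome. Promoter signal with total Pol II was 2133 to 4112 (median 3355) in shRPAP1 and 858 to 2368 (median 2014) in SCR. With Ser5P it was 1952 to 4425 (median 3539) in shRPAP1 and 741 to 2313 (median 1538) in SCR. The ranges overlapped, but each of the 8 promoters was higher in shRPAP1 than in SCR with each antibody.

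The median promoter log2 ratio of the mitochondrial copies was 0.97 (range 0.38 to 1.47) with total Pol II and 1.26 (0.78 to 1.62) with Ser5P. At least 1.5-fold higher were 7 of 8 promoters with total Pol II (9.68% of all genes past the filter) and 8 of 8 with Ser5P. Over gene bodies the medians were 0.68 and 0.99, and 8 of 8 were at least 1.5-fold higher with total Pol II (6.37% of all genes). The exception with Ser5P was the gene body of Gm28438, with 1876 in shRPAP1 and 2574 in SCR. Of the 8 copies, 4 passed the high-signal cut only in shRPAP1, so their direction is in part set by the choice. No conclusion is drawn from the gap between their shares and those of all genes. Under the scaling that set the receptors equal, the promoter medians were 0.19 and 0.68, and those of gene bodies were -0.17 and 0.17. The 13 genes of the mitochondrial genome itself, which Pol II does not transcribe, had promoter medians of 0.89 and 1.11.

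Further predicted genes shared shorter stretches with the mitochondrial genome. Besides these 8, 4 ordinary members had 40-base words found in it. In Gm4076, a processed pseudogene on chromosome 13 with 10.3% of its words shared, the promoter held 232 in shRPAP1 and 87.3 in SCR for total Pol II, and 347 in shRPAP1 and 145 in SCR for Ser5P. Its gene body held 897 in shRPAP1 and 579 in SCR for total Pol II, and 946 in shRPAP1 and 401.5 in SCR for Ser5P. In Gm13339, which adjoins Gm13340 and shares 4.12%, the gene body held 1969 in shRPAP1 and 1512 in SCR for total Pol II, and 1561 in shRPAP1 and 689 in SCR for Ser5P, the highest mean gene body signal of any ordinary member. The promoters of Gm11408 (415 in shRPAP1 and 102 in SCR, then 297 in shRPAP1 and 224 in SCR with Ser5P) and Gm11410 (233 in shRPAP1 and 29.6 in SCR, then 268 in shRPAP1 and 178 in SCR with Ser5P) were higher in shRPAP1 with both antibodies as well. The counting intervals of their log2 ratios ran from 0.14 to 3.87 and from 0.10 to 8.47 with total Pol II, and included 0 with Ser5P. Those of the Gm4076 promoter included 0 with both (-0.64 to 3.96 and -0.35 to 3.12). The Gm13339 promoter held 174 in shRPAP1 and 145 in SCR for total Pol II, and 145 in each for Ser5P. The gene body of Gm11408 held 88.8 in shRPAP1 and 1.10 in SCR for total Pol II, but 1.10 in shRPAP1 and 45.0 in SCR for Ser5P. That of Gm11410 held 34.2 in shRPAP1 and 22.9 in SCR, then 11.6 in each with Ser5P.

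The remaining 14 high-signal members were lower in shRPAP1 with both antibodies in the values as deposited. Promoter signal with total Pol II was 83.7 to 1403 (median 512) in shRPAP1 and 453 to 3323 (median 956) in SCR. With Ser5P it was 846 to 2727 (median 1498) in shRPAP1 and 2005 to 6981 (median 3084) in SCR. The ranges overlapped, and each of the 14 was below 0 on the log2 scale with each antibody, with medians of -1.23 and -1.15 at promoters and of -1.08 and -1.16 over gene bodies. At least 1.5-fold lower were 13 promoters with total Pol II and 13 with Ser5P, where 71.9% of all genes past the filter were lower with Ser5P. With the medians of all genes set to 1, 8 of 14 were below 0 and 6 above for total Pol II, and 9 were below and 5 above for Ser5P. In the gene bodies all 14 were at least 1.5-fold lower with each antibody, against 63.0% of all genes past that filter with Ser5P. Of the 14, 12 passed the high-signal cut only in SCR, so their direction is in part set by the choice. The shares of all genes, which were not chosen in this way, are therefore no fair comparison, and no conclusion is drawn from the gap.

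Most of these 14 lie within or beside a named gene. Gm15270, a transcript whose window lies in Ccn2 (Ctgf in the table, a matricellular growth factor), had the highest promoter signal, at 1403 in shRPAP1 and 3323 in SCR for total Pol II, and 2727 in shRPAP1 and 6981 in SCR for Ser5P. Its log2 ratios were -1.24 (95% interval -1.74 to -0.74) and -1.36 (-1.72 to -1.01). The promoter of Ctgf itself held 641 in shRPAP1 and 1955 in SCR for total Pol II, and 2142 in shRPAP1 and 4599 in SCR for Ser5P. Gm29233 lies at the end of Thbs1, which encodes the matrix protein thrombospondin-1, 12171 bases from its start. It held 823 in shRPAP1 and 2696 in SCR, and 1914 in shRPAP1 and 5783 in SCR with Ser5P, close to the gene body of Thbs1 in Ser5P (2456 in shRPAP1 and 6283 in SCR). Gm4189 starts 14 bases from Ddit3, a transcription factor of the endoplasmic reticulum stress response, and held 642 in shRPAP1 and 1523 in SCR for total Pol II, and 1583 in shRPAP1 and 2529 in SCR for Ser5P.

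Gm20632, Gm20633 and Gm20634 lie in the replication-dependent histone cluster on chromosome 3, with Ser5P promoter signals of 1261, 846 and 1548 in shRPAP1 and of 3411, 2376 and 3379 in SCR. Between 0% and 14.8% of their 40-base words occur once in the genome, since the histone genes there are duplicated. Gm3448, beside Tcte3, had the lowest total Pol II signal of the 14, at 83.7 in shRPAP1 and 453 in SCR. Gm20417 had no single position, and held 1077 in shRPAP1 and 3137 in SCR for total Pol II, and 2588 in shRPAP1 and 4629 in SCR for Ser5P. Gm28285 and Gm28496 were also in the group, as were the 3 interferon genes described next.

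A set of 3 high-signal members, Gm13283, Gm13285 and Gm13288, belong to a block of 13 predicted coding genes around Ifnz on chromosome 4. Ifnz encodes limitin (interferon zeta), a type I interferon, and the block is a tandem duplication of it. Promoter signal within the block fell into separate levels. Gm13283 held 382 in shRPAP1 and 953 in SCR for total Pol II, and 1440 in shRPAP1 and 2743 in SCR for Ser5P. Gm13285 held 455 in shRPAP1 and 850 in SCR for total Pol II, and 1039 in shRPAP1 and 2997 in SCR for Ser5P. Gm13288 held 428 in shRPAP1 and 798 in SCR for total Pol II, and 1447 in shRPAP1 and 3171 in SCR for Ser5P, with log2 ratios of -0.90 (95% interval -1.91 to 0.05) and -1.13 (-1.65 to -0.64). Ifnz was of the same order, with 565 in shRPAP1 and 935 in SCR, and 1015 in shRPAP1 and 2285 in SCR with Ser5P. The other 10 predicted genes held 0.72 to 133 in shRPAP1 and 26.7 to 203 in SCR with total Pol II, and 58.4 to 363 in shRPAP1 and 116 to 1144 in SCR with Ser5P, so their levels did not overlap those of the first 4 genes within a library.

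**Figure D3:**
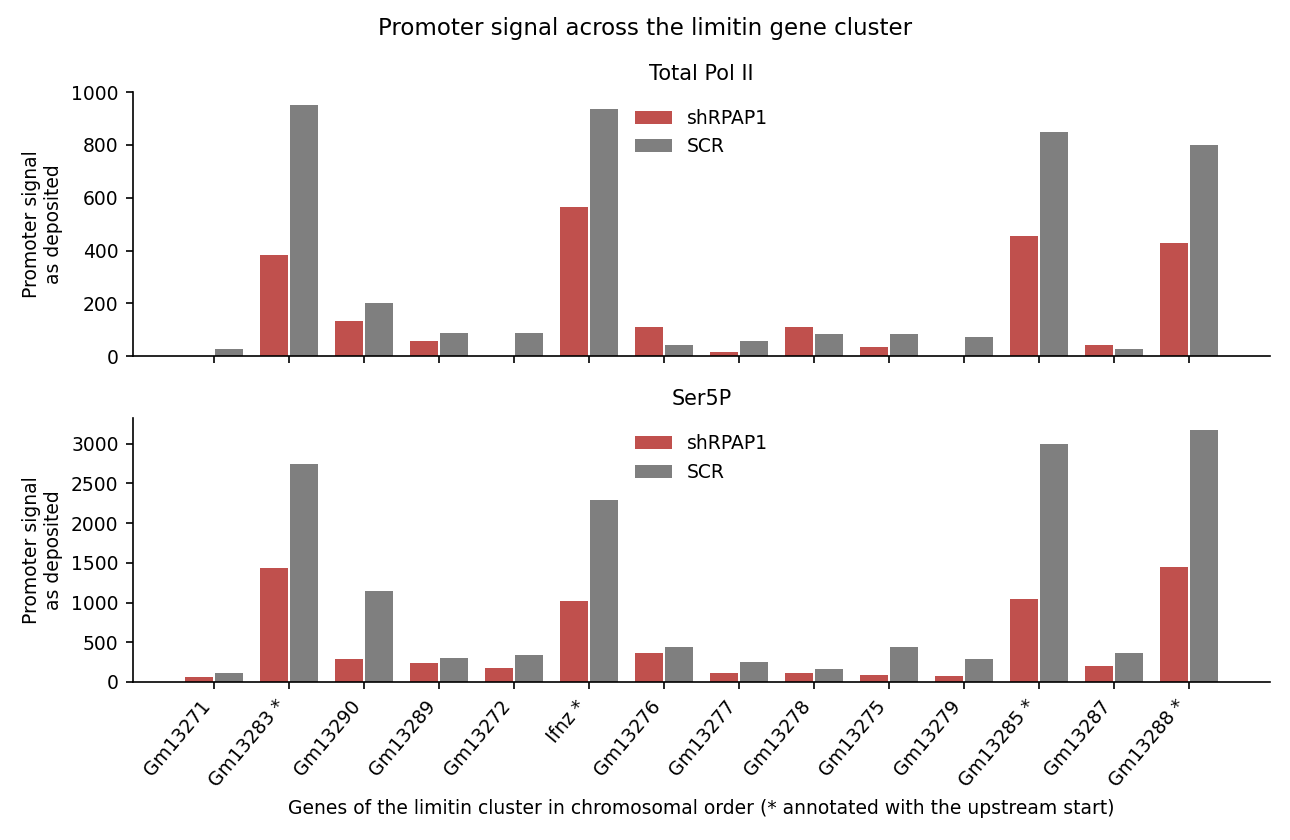
Promoter signal as deposited in shRPAP1 (red) and SCR (grey) for the 13 predicted genes of the limitin block and Ifnz, in chromosomal order, with total Pol II (top) and Ser5P (bottom). A star marks the 4 genes annotated with the upstream start, whose Ser5P signal in SCR is 2285 to 3171, against 116 to 1144 in the other 10.

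What the 4 genes with high signal share is their annotation. In GENCODE they span 1462 to 2850 bases, whereas 8 of the other 10 span 549 bases. The RefSeq promoters of Gm13276, Gm13277 and Gm13278, whose table signal is low, lie 655 bases upstream of their GENCODE starts, and each differs from that of Gm13288 by 1 base of 300 (99.67% identity), as does that of Ifnz. The printed sequences of Gm13288 and Gm13276 show this pair. Gm13288, whose RefSeq and GENCODE starts coincide, held 3171 with Ser5P in SCR. The 442 of Gm13276 is taken here to lie at its GENCODE start, so it does not belong to the printed sequence. In 10 of the 13 windows no 40-base word occurs once in the genome. How the authors placed reads that match several sites is not given in the sources used here, so the signals of these genes are uncertain singly.

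Ordinary members had low signal as a rule, and their ratios centred nearer to 0 than those of other genes. A mean signal above that of silent receptor genes (38.41 at promoters, 27.07 over gene bodies) was reached by 1845 of the 10599 at the promoter and by 2588 over the gene body. Among those 1845, the median log2 ratio of shRPAP1 over SCR was -0.62 with total Pol II and -0.90 with Ser5P, beside -0.98 for all genes with each antibody. Over gene bodies the medians were -0.32 and -0.53, beside -0.53 and -0.76 for all genes. At least 1.5-fold lower at the promoter were 934 members (50.6%) with total Pol II, where 64.7% of all genes were, and 1098 (59.5%) with Ser5P, where 71.9% were. At least 1.5-fold higher were 20.5% and 13.4%, beside 9.68% and 5.84% of all genes. Over gene bodies 997 (38.5%) and 1234 (47.7%) were lower, beside 45.7% and 63.0%, and 19.6% and 20.2% were higher, beside 6.37% and 6.92%. Genes whose symbol ends in Rik, another provisional class, had promoter medians of -0.84 and -0.98.

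The gap to other genes was smaller among members with more reads. At a mean below 5 promoter reads the medians were -0.41 with total Pol II and -0.73 with Ser5P in 1300 ordinary members, and -0.76 and -0.87 in 3588 genes that are not predicted. Between 5 and 10 reads they were -0.82 and -1.01 in 299 members, and -1.05 and -0.98 in the other genes. Between 10 and 20 reads they were -0.80 and -1.05 in 192 members, and -1.08 and -1.05 in the others. At 20 reads or more they were -1.06 and -0.98 in 54 members, and -1.11 and -1.02 in 1547 others. With Ser5P the medians of ordinary members and of other genes thus lay within 0.1 of each other from 5 reads upward. These bins were chosen after values had been seen. At few reads the background that was higher in shRPAP1 makes up more of the signal, and its part in the gap was not tested.

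Ser5P exceeded total Pol II by less at ordinary members than at other genes. The median log2 ratio of Ser5P over total Pol II at their promoters was 0.78 in shRPAP1 and 1.01 in SCR, beside 1.25 and 1.25 for all genes. Over gene bodies it was 0.12 in shRPAP1 and 0.19 in SCR, beside 0.15 and 0.36. The gap differed by position. Within 1000 bases of a named start the medians were 1.11 and 1.25 at promoters. Over gene bodies they were 0.29 and 0.60 there, above those of all genes. Beyond 10000 bases they were 0.57 and 0.78 at promoters, and 0.03 and 0.00 over gene bodies.

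Promoter signal of predicted genes was concentrated near the starts of named genes. Of 612 ordinary members that start within 1000 bases of a named start, 264 (43.1%, 95% Clopper-Pearson interval 39.2 to 47.2) had a mean of 5 reads or more, against 243 of 9379 (2.59%, 2.28 to 2.93) farther away. Named genes here are coding or long noncoding genes of GENCODE whose symbol is not a Gm number, a Rik name or a clone name. Head to head with the named gene, on opposite strands and pointing away from each other within 1000 bases, were 268 members, of which 129 (48.1%) reached 5 reads. Since windows this close overlap or adjoin, fragments from the named promoter and from the predicted gene cannot be told apart. Within 1000 bases, 232 of 338 members (68.6%, 63.4 to 73.6) reached 5 reads where the named neighbour did, and 30 of 271 (11.1%, 7.60 to 15.4) where it did not. Beyond 1000 and up to 10000 bases the shares were 9.07% of 452 and 4.49% of 802, and beyond 10000 bases 2.97% of 2393 and 1.62% of 5625.

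**Figure D4:**
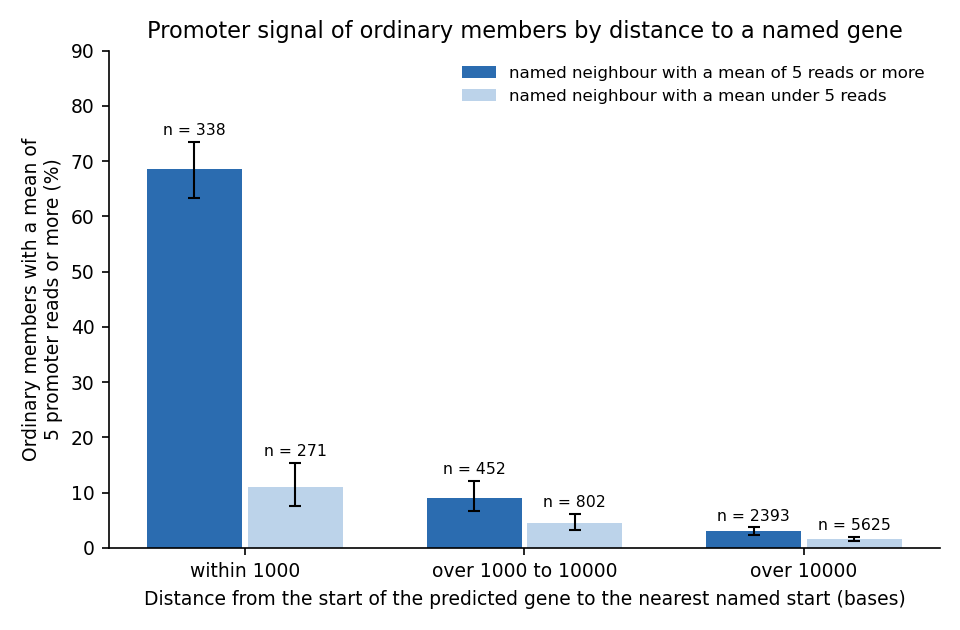
Share of ordinary predicted genes with a mean of 5 promoter reads or more (y axis, percent) by distance of their start to the nearest named start (x axis, bases), split by whether that named gene itself had a mean of 5 reads or more (dark) or not (light). Error bars are 95% Clopper-Pearson intervals. Within 1000 bases the share is 68.6% beside a gene with signal and 11.1% beside one without.

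Annotation class followed the same order. Of bidirectional promoter lncRNAs 48.8% reached a mean of 5 reads, of processed transcripts 18.5%, of antisense transcripts 11.7%, of coding genes 8.62% and of lincRNAs 5.95%. Of processed pseudogenes 1.12% did and of unprocessed pseudogenes 0.657%. The class of bidirectional lncRNAs is defined by its place beside a promoter, so its share is not independent of the distance. The median log2 ratio of members past the filter within 1000 bases of a named start was -0.82 with total Pol II and -0.96 with Ser5P, and beyond 10000 bases -0.46 and -0.74.

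Among ordinary members with the highest mean promoter signal, most were of this paired kind. Gm12694, an antisense transcript 103 bases from the start of the histone H2A deubiquitinase gene Mysm1 and head to head with it, held 483 in shRPAP1 and 700 in SCR for total Pol II, and 676 in shRPAP1 and 1929 in SCR for Ser5P. Only its Ser5P log2 ratio, at -1.51 (95% interval -2.29 to -0.84), had an interval clear of 0. Gm26594 starts 81 bases from Prpf3, a spliceosome gene, and held 260 in shRPAP1 and 977 in SCR for total Pol II, and 821 in shRPAP1 and 1485 in SCR for Ser5P, with log2 ratios of -1.91 (-3.16 to -0.83) and -0.85 (-1.58 to -0.17). Gm26787, 208 bases from the oligosaccharyltransferase gene Stt3a, held 405 in shRPAP1 and 743 in SCR, and 782 in shRPAP1 and 1321 in SCR with Ser5P. Its signal exceeded that listed for Stt3a in all 4 libraries (116 in shRPAP1 and 347 in SCR, then 316 in shRPAP1 and 754 in SCR with Ser5P). Gm28037 in Rpl24, Gm17690 in Sf3b4 and Gm21992 in Rbm14 start within 84 bases of the named start on a shared strand or promoter, and their signal cannot be told apart from that of those genes. Gm6634, described below, was also among the 10 highest. Gm20422 (264 in shRPAP1 and 765 in SCR, then 1054 in shRPAP1 and 1713 in SCR with Ser5P), Gm21769 (219 in shRPAP1 and 822 in SCR, then 865 in shRPAP1 and 1875 in SCR with Ser5P) and Gm21092 (361 in shRPAP1 and 664 in SCR, then 726 in shRPAP1 and 1514 in SCR with Ser5P) were the others. The last 2 lie on chromosome 8, 627287 and 325072 bases from the nearest named starts, those of the defensin genes Defb7 and Defb33, with 32.3% and 0% of their 40-base words unique.

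Members far from any named start were fewer. Of 507 ordinary members with a position and a mean of 5 reads or more, 264 lay within 1000 bases of a named start, 79 beyond that and up to 10000 bases, and 164 farther away, of which 122 were outside any named gene. In 63 of the 164 every 40-base word of the window occurs once in the genome, and 33 of these were outside any named gene. Gm6634, a lincRNA on chromosome 3 and 799678 bases from the nearest named start, was the highest of these 33. It held 469 in shRPAP1 and 992 in SCR for total Pol II, and 858 in shRPAP1 and 1126 in SCR for Ser5P. The log2 ratios were -1.08 (95% interval -2.04 to -0.19) and -0.39 (-1.12 to 0.35), so the difference exceeded counting error with total Pol II only. The next, named after their values were seen, were Gm14005 (344 in shRPAP1 and 672 in SCR, then 546 in shRPAP1 and 1434 in SCR with Ser5P), Gm14636 on the X chromosome (262 in shRPAP1 and 577 in SCR, then 549 in shRPAP1 and 1256 in SCR with Ser5P) and Gm26670 (225 in shRPAP1 and 625 in SCR, then 505 in shRPAP1 and 1202 in SCR with Ser5P). All 4 were below 0 with both antibodies.

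By the rule that ranked members with enough signal in both conditions, 191 ordinary members could be ranked at the promoter, of which 150 (78.5%) were below 0 with both antibodies and 3 (1.57%) above 0 with both. Of all 3993 genes that met this rule, 87.6% were below 0 with both and 0.927% above. The lowest was Gm13523, an antisense transcript 113 bases from Fam129b, with 145 in shRPAP1 and 681 in SCR for total Pol II, and 443 in shRPAP1 and 1204 in SCR for Ser5P. Its log2 ratios were -2.23 (95% interval -4.01 to -0.84) and -1.44 (-2.44 to -0.61), whereas those of the Fam129b promoter were -0.59 and -1.43. Next came Gm15444 in the histone gene Hist2h2ab, with 216 in shRPAP1 and 658 in SCR, and 559 in shRPAP1 and 1494 in SCR with Ser5P, then Gm28042, Gm27021 and Gm27184, each beside a named start. The 3 that were higher in both were Gm12735 (428 in shRPAP1 and 292 in SCR, then 293 in shRPAP1 and 203 in SCR with Ser5P), Gm17115 (193 in shRPAP1 and 175 in SCR, then 374 in shRPAP1 and 270 in SCR with Ser5P) and Gm26686 (323 in shRPAP1 and 304 in SCR, then 457 in shRPAP1 and 198 in SCR with Ser5P). Their counting intervals all included 0.

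Over gene bodies 1058 ordinary members could be ranked, of which 708 (66.9%) were below 0 with both antibodies and 141 (13.3%) above. Of all 8204 genes that met this rule, 86.7% were below 0 with both and 3.8% above. Gm15441, antisense to Txnip, had the lowest ratios. Txnip encodes thioredoxin-interacting protein, an arrestin-like regulator of glucose uptake. The gene body of Gm15441 held 60.3 in shRPAP1 and 313 in SCR for total Pol II, and 110 in shRPAP1 and 629 in SCR for Ser5P. The log2 ratios were -2.37 (95% interval -2.76 to -2.00) and -2.51 (-2.80 to -2.24). The gene body of Txnip, which ChIP cannot separate from an antisense transcript over it, held 41.0 in shRPAP1 and 363 in SCR, and 83.2 in shRPAP1 and 828 in SCR with Ser5P. At its own start, 8844 bases from that of Txnip, Gm15441 had no coverage in either SCR library.

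Next lowest over gene bodies were Gm28707, Gm9887 in Arf6, Gm29491 in Tgfb2 and Gm6472. The gene body rule set no minimum of reads, and these ratios rest on few. In total Pol II shRPAP1 the 4 gene bodies held about 4.06, 2.04, 4.06 and 1.04 reads in that order. The counting intervals of Gm6472 included 0 with both antibodies (-7.62 to 1.34 and -7.89 to 0.84). That of Gm28707 included 0 with Ser5P (-5.11 to 0.59). Gm29491 held 37.0 in shRPAP1 and 142 in SCR for total Pol II, and 38.6 in shRPAP1 and 151 in SCR for Ser5P, and Tgfb2, a growth factor gene, held 34.9 in shRPAP1 and 89.98 in SCR for total Pol II, and 43.5 in shRPAP1 and 109 in SCR for Ser5P. The long lincRNA Gm17501, head to head with Ccn1 (Cyr61 in the table, a matricellular gene) at 331 bases, had one of the highest gene body signals. It held 494 in shRPAP1 and 735 in SCR, and 630 in shRPAP1 and 1577 in SCR with Ser5P, with log2 ratios of -0.57 (95% interval -0.67 to -0.47) and -1.32 (-1.40 to -1.25). The gene body of Cyr61 held 1025 in shRPAP1 and 2713 in SCR, and 2662 in shRPAP1 and 5535 in SCR with Ser5P. Gm28119 (322 in shRPAP1 and 929 in SCR, then 338 in shRPAP1 and 1817 in SCR with Ser5P) and Gm9970 in Nrbp1 (268 in shRPAP1 and 806 in SCR, then 882 in shRPAP1 and 2347 in SCR with Ser5P) were short genes with gene body signal of the same order. The highest ratios over gene bodies were those of Gm10147, Gm10921, Gm15249, Gm21870 and Gm2825. The counting intervals of Gm21870 included 0 with both antibodies (-0.64 to 3.96 and -0.42 to 4.11). Gm10921, Gm15249 and Gm2825 had no position and so no gene body interval. Gm10147 on the X chromosome, none of whose 40-base words occurs once, held 74.7 in shRPAP1 and 33.2 in SCR, and 79.0 in shRPAP1 and 27.9 in SCR with Ser5P, with log2 ratios of 1.16 (0.77 to 1.56) and 1.49 (1.09 to 1.92). Its promoter was at the floor in all 4 libraries, as were those of Gm10921 and Gm15249.

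At promoters the total Pol II ratio moved with the uniqueness of the sequence, and the Ser5P ratio differed only where no word was unique. Among ordinary members past the promoter filter, the median log2 ratio was -0.83 with total Pol II and -0.93 with Ser5P in the 936 whose 40-base words all occur once in the genome. In the same order it was -0.44 and -0.92 in the 664 with only some such words, and 0.00 and -0.29 in the 126 with none. Over gene bodies the medians moved with both antibodies, at -0.52 and -0.73 in 1140 members with all words unique. They were -0.10 and -0.31 in 1056 members with some such words, and 0.25 and 0.57 in 208 with none. On the X chromosome the gene body medians of ordinary members past the filter were 0.57 and 0.85 (195 members), where those of all genes were below 0. With the receptors set equal they were -0.28 and 0.03, so the direction with total Pol II depends on the scaling.

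Predicted genes on the Y chromosome were nearly all without promoter coverage. No promoter coverage in any library was listed for 1256 of 1279 (98.2%), against 25.9% of the 1083 on the X chromosome and 13.7% to 21.8% on single autosomes. Most Y members are copies of amplified families: in 990 of them no 40-base word occurs once. Of those with some unique words, 283 of 286 had no promoter coverage. The promoters of the 7 named Y coding genes with fully unique windows (Ddx3y, Eif2s3y, Kdm5d, Sry, Usp9y, Uty and Zfy2) were at the floor in all 4 libraries. Some of their gene bodies held reads. That of Uty held 9.87 in shRPAP1 and 5.90 in SCR for total Pol II, and 11.15 in shRPAP1 and 5.70 in SCR for Ser5P. Mean gene body signal of the silent receptor genes was 11.9, 6.58, 9.60 and 5.43 in that order. The gene body of Sry held 0.27 in each library. The cause of the missing promoter coverage was not tested. The 1 exception with a mean of 5 reads or more was Gm21742, with 284 in shRPAP1 and 347 in SCR for total Pol II, and 196 in shRPAP1 and 260 in SCR for Ser5P. Which sex the 3 pooled lines had is not given in the sources used here.

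**Figure D5:**
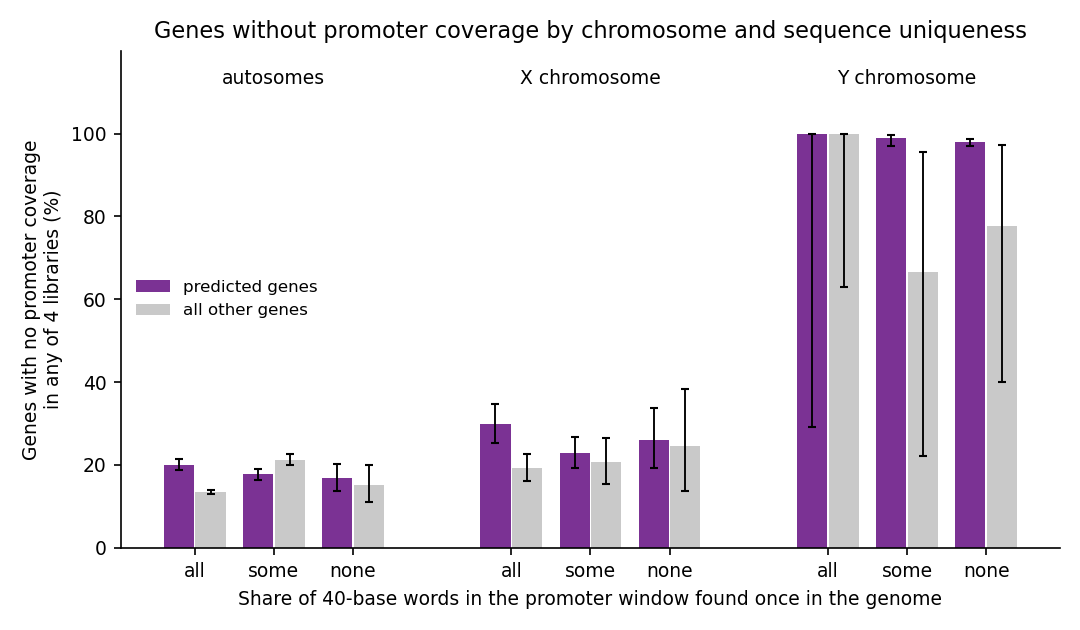
Share of genes with no promoter coverage in any of the 4 libraries (y axis, percent) for predicted genes (purple) and all other genes (grey) on autosomes and on the X and Y chromosomes, by whether all, some or none of the 40-base words of the promoter window occur once in the genome. Error bars are 95% Clopper-Pearson intervals. On autosomes with fully unique windows the share is 20.1% of predicted and 13.5% of other genes, and on the Y chromosome it is 98.0% to 100% of predicted genes.

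On the autosomes the share without coverage moved differently with uniqueness in predicted and in other genes. With every word unique, 20.1% of 3891 predicted genes had no coverage in any library, against 13.5% of 17819 other genes. With some words unique it was 17.7% of 3242 predicted genes and 21.3% of 3598 other genes. With no unique word the shares were 16.8% of 530 predicted and 15.2% of 277 other genes. With every word unique, 9.15% of predicted genes reached a mean of 5 reads, against 41.4% of the others.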

How the data were processed

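Pol II ChIP-seq was analysed for 4 libraries, total Pol II and Ser5P in shRPAP1 and in SCR fibroblasts. Input chromatin and the 12 RNA samples were not analysed here. The authors deposited a signal for the promoter and the body of each gene, which behaves as base coverage. The tools and build that the submitters' processing notes name are FastQC, SAMtools 0.1.16, bedtools 2.23.0, MACS2 2.0.10.20130712 and GRCm38 (mm10). The aligner, the treatment of reads that match several sites, the promoter window, any input correction and any depth scaling were not given in the sources used here.

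The table had 36230 rows, of which 58 exact repeats were dropped. All 144688 promoter values were multiples of 0.7212 within 0.0051, which gave the read equivalents. The window was inferred as 30 bases before to 300 after the start, and read equivalents of gene bodies rest on the GENCODE length. Log2 ratios of shRPAP1 over SCR were taken after adding 0.72 at promoters and 0.33 over gene bodies. The 0.72 is small beside the 29.57 of a first read, so promoter ratios of genes with few reads can be extreme. Gm13271, with 0 reads in shRPAP1 and 1 in SCR for total Pol II, had a ratio of -4.39. A gene passed the filter when its mean over the 4 libraries exceeded the mean 95th percentile of 1573 receptor genes. Lower and higher mean a fold of 1.5. Intervals are 95% Clopper-Pearson, from read equivalents. Reads without molecular identifiers are not independent molecules.

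Uniqueness was the share of 40-base words of the window found once in GRCm38. Named members were the 20 highest of the high-signal set, the 10 highest ordinary promoters and 5 highest gene bodies, the 5 lowest and 5 highest ratios alike with both antibodies among members with at least 5 read equivalents in each library (gene bodies past the threshold in each), the 3 nearest 2000 on either side, and Rpap1. Other genes were named after their values were seen. A gene that the rule named is not reported here. The members and lists were chosen with earlier results of these data known. Steps were tested on simulated data. Python 3.11.15, numpy 2.4.6, pandas 2.3.3, scipy 1.17.1 and numba 0.67.0 were used.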

Additional observations from a re-analysis of the deposited data

How the results depend on the processing

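Scaling decided the direction of the ordinary members. With the median ratio of all genes set to 1, their promoter medians became 0.35 with total Pol II and 0.083 with Ser5P, and their gene body medians 0.21 and 0.23. The numbers at least 1.5-fold lower became 497 and 461 at promoters, and 569 and 540 over gene bodies. With the receptors set equal the medians were -1.38 and -1.47, and -1.17 and -1.34, and the numbers over gene bodies were 1870 and 1923. Without a filter all 4 medians were 0.0, as were all 4 medians of Ser5P over total Pol II, and the numbers lower were 2418 and 2022 for total Pol II, then 2737 and 2458 for Ser5P. With a filter on either library of an antibody, the total Pol II medians were -0.97 and -0.42, and the Ser5P numbers 1664 and 1958. In genes of at least 1000 bases, chosen after seeing the data since 919 of the 2404 members with a position past the gene body filter were shorter, the total Pol II gene body median was -0.40 and the numbers lower were 560 and 717. With pseudocounts 10 times smaller or larger the medians ranged from -0.63 to -0.58 and -0.32 to -0.30 with total Pol II, and from -0.90 to -0.84 and -0.53 to -0.50 with Ser5P.

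The 35 high-signal members together had total Pol II medians of -0.73 at promoters and -0.68 over gene bodies, and Ser5P medians of 0.86 and 0.89. With the median ratio set to 1 these became 0.25 and -0.15, and 1.84 and 1.65. With the receptors set equal the total Pol II values were -1.51 and -1.53. At a value of 1000 in place of 2000, the set had medians of -0.90 at promoters with total Pol II, and of -1.03 and -0.76 with Ser5P, and held 114 genes. The share without coverage, counting up to 1 read as none, was 83.4%, 82.8%, 80.2% and 77.8% in total Pol II shRPAP1, total Pol II SCR, Ser5P shRPAP1 and Ser5P SCR. At 500 bases in place of 1000, 52.1% of members within and 3.01% beyond reached 5 reads, and at 2000 bases 34.9% within.

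Single genes changed sign too. With the median ratio set to 1, total Pol II promoter ratios were 0.095 for Gm11168, 0.18 for Gm10800, 0.23 for Gm10718, 0.17 for Gm10801, 0.31 for Gm10721, 0.37 for Gm21738, 0.27 for Gm17535, 0.25 for Gm10717, 0.27 for Gm26870, 0.26 for Gm10722, 0.33 for Gm10720, 0.12 for Gm17501, 0.16 for Gm9970, 0.10 for Gm21092, 0.11 for Gm21992 and 0.11 for Gm26787. Ser5P promoter ratios were then 0.14 for Gm20417, 0.21 for Gm17501, 0.28 for Gm9970, 0.28 for Gm20422, 0.13 for Gm26594, 0.23 for Gm26787, 0.32 for Gm21870, 0.032 for Gm29491 and 0.27 for Rpap1. With the receptors set equal, the total Pol II promoter ratio of Rpap1 was -0.15 and the gene body ratio of Gm4076 was -0.22. Of the named genes' ratios under the 2 scalings, 133 stayed within their counting interval and 132 left it or had no interval. The 27 given here are those at least 1.5-fold as deposited that changed sign. Smaller ratios that changed sign were not counted in the 27. Among the 132 are the total Pol II promoter ratios of Gm10715 (-0.54 as deposited) and Gm10719 (-0.34). With the median ratio set to 1 these were 0.44 and 0.65. A scaling shifts every gene of a library by the same amount.

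No paired analysis was possible because each antibody and hairpin has 1 library, and the numbered replicates in the labels are RNA samples that were not analysed here. Each library is alone in its group, so none was left out.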
